A study of Arabidopsis thaliana with 9 samples.

Results

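SWEET proteins form a family of sugar transporters in plants, and SAG29, also known as SWEET15, is the member first named as a senescence-associated gene. The probe sets described here each name exactly 1 gene in the array's annotation, and that gene is SAG29 or carries a symbol that starts with SWEET. The rule gave 16 of the 22746 probe sets tested on the array. SAG29 is locus AT5G13170. The members cover 15 SWEET transporter genes and SWEETIE, whose name fits the rule but whose product, known to act in sugar metabolism, is not a SWEET transporter. Of the 17 Arabidopsis SWEET genes, SWEET12 had no probe set naming it alone and was not analysed here. SWEET5 is annotated as AtVEX1 and was therefore measured but is no member.

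SWEET transporters move sugars down their concentration gradient, either across the plasma membrane or across the tonoplast, which bounds the vacuole. In leaves, SWEET11 and its close relative SWEET12 release sucrose from phloem parenchyma cells, a step ahead of phloem loading by proton-coupled sucrose carriers. Family members closest to SWEET11, among them SWEET13, SWEET14 and SAG29, mainly carry sucrose, SWEET1 and SWEET4 mainly carry hexoses such as glucose, and SWEET16 and SWEET17 lie in the tonoplast. SAG29 is known to be induced in senescing leaves and by osmotic stress and abscisic acid, and it also serves seed filling.

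Signals came from 9 Affymetrix arrays of Arabidopsis thaliana seedlings (ecotype given as col 1), 21 days old, untreated and grown on MS medium without antibiotic selection. Groups of 3 arrays stand for line 22, which carries OsSAP11 from rice, for line 25, which carries OsRLCK253 from rice, and for untransformed wild type. The first transgene codes for a zinc finger protein of the stress-associated family, the second for a receptor-like cytoplasmic kinase. Each transgene is represented by 1 line, so transgene and line cannot be told apart, and the sources used here do not name the promoter. The replicates are called biological in the labels. Both comparisons with wild type use the same 3 wild type arrays.

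The median signal per array lay between 42.9 and 46.2, and arrays of one group correlated at 0.993 to 0.997 across probe sets. The hybridisation spike-ins, which do not come from the plant, had lower signals in each line than in wild type for all 18 of their probe sets, with a median log2 difference of -0.26 for the OsSAP11 line and -0.17 for the OsRLCK253 line. The ratio of 3' to 5' signal, a measure of RNA integrity, was higher than in wild type for 3 of 6 control pairs in the OsSAP11 line (range of differences -0.14 to 0.30 in log2) and for 5 of 6 in the OsRLCK253 line (-0.13 to 0.22). Of the marker lists for tissues, 3 of 5 photosynthetic leaf genes and 2 of 7 root genes had a probe set of their own. None of the 4 seed, 3 phloem and 4 senescent leaf markers did, so these are not analysed here. The part of these differences in the results was not tested. Whole seedlings were measured, so more cells of a type and more RNA per cell cannot be told apart.

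Among the members, 9 reached a signal of 16 on at least 1 array. These were SAG29, SWEET1, SWEET2, SWEET4, SWEET11, SWEET13, SWEET16, SWEET17 and SWEETIE. The remaining 7, SWEET3, SWEET6, SWEET7, SWEET8, SWEET9, SWEET10 and SWEET14, stayed between 3.79 and 5.35 on all 9 arrays. On each array 39.8% to 40.3% of the probe sets tested had a signal under 16. Among the genes at this low level are SWEET8, needed for pollen development, and SWEET9, needed for nectar secretion. SWEET10 and SWEET13 are neighbouring genes, with 0 annotated genes between them, and of this pair SWEET13 alone had signals above 16. AtVEX1 (SWEET5), known from the vegetative cell of pollen, stayed between 5.19 and 11.95, with changes that did not pass the test.

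A change is given as the difference of log2(signal + 16) with its standard error (SE), and a gene is called where the adjusted p is under 0.05. The added 16 makes the changes of dim probe sets smaller. Against wild type, 5 of the 16 members were called higher in the OsSAP11 line and 0 lower, while 12.6% of all probe sets tested were called, 7.44% higher and 5.17% lower. The members called were SAG29, SWEET1, SWEET4, SWEET17 and SWEETIE. In the OsRLCK253 line 5 of 16 were likewise called higher and 0 lower, against 13.8% called over all probe sets, 6.95% higher and 6.85% lower. Here they were SAG29, SWEET1, SWEET11, SWEET13 and SWEETIE. So 7 members were called in at least 1 line, and 3 in both. The matching shares over all probe sets were not computed. Both lines were compared with the same wild type arrays, so their calls are not independent. The median change over the 16 members was 0.11 for the OsSAP11 line and 0.029 for the OsRLCK253 line, beside -0.0021 and 0.014 over all probe sets tested, and the 7 dim members hold these medians near 0.

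**Figure D1:**
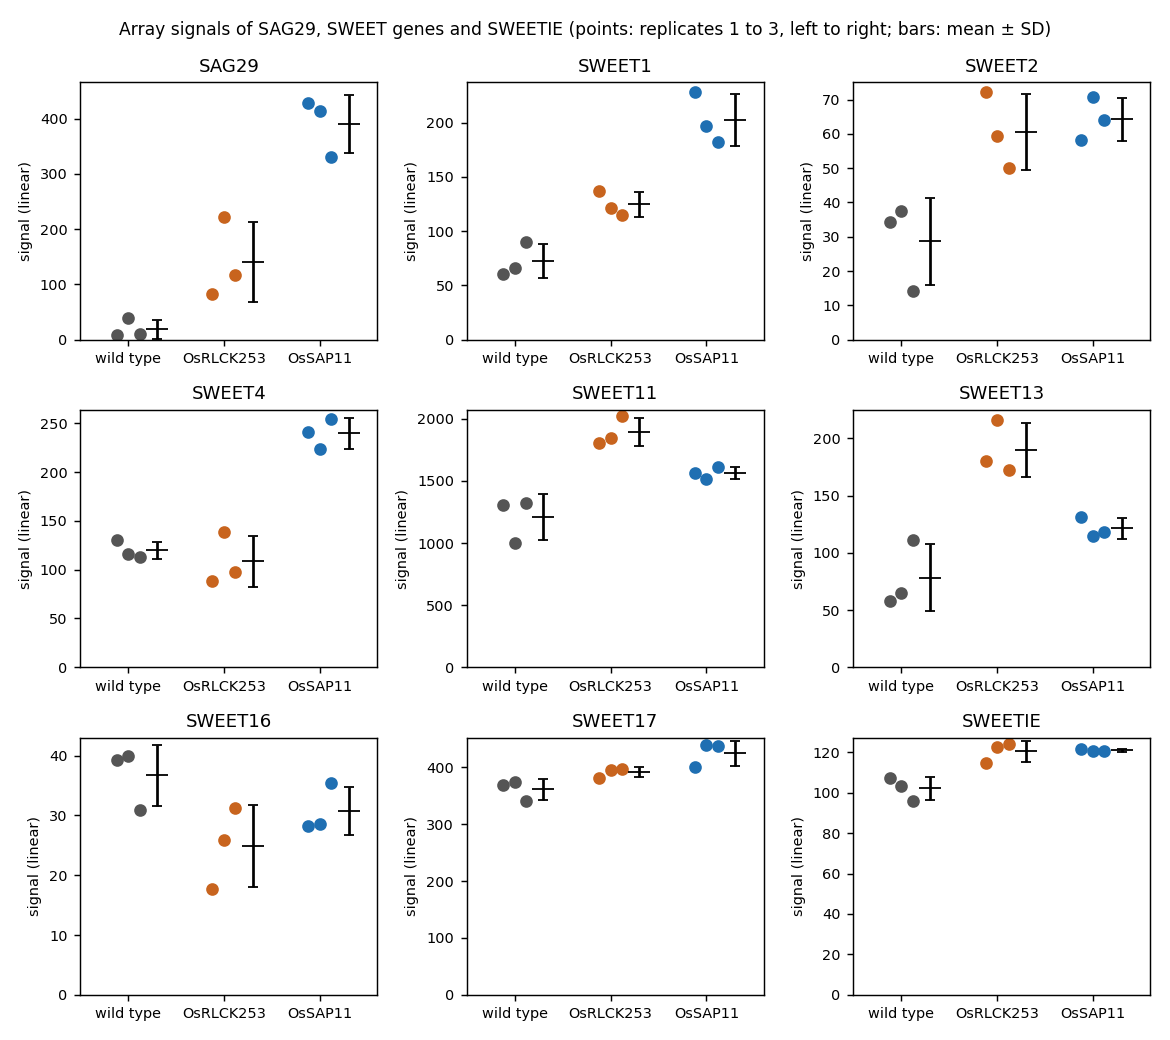
Signal on a linear scale of the 9 members that reached 16 on at least 1 array, with 1 panel per gene, wild type, OsRLCK253 and OsSAP11 arrays from left to right, and bars for the mean ± SD of 3 arrays. For SAG29 the wild type arrays lie between 7.65 and 38.4 and the OsSAP11 arrays between 330.1 and 428, while for SWEET11 and SWEET13 the OsRLCK253 arrays are the highest.

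SAG29 showed the largest change of any member in either line. Its signals were 7.65, 38.4 and 9.40 on the wild type arrays, 82.8, 221 and 117 on the OsRLCK253 arrays, and 428, 414 and 330.1 on the OsSAP11 arrays. The 3 groups did not overlap, and within the OsRLCK253 line the second array was well above the other two. In wild type 2 of 3 arrays were under 16, and replicate 2 stood above them.

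SAG29 rose in the OsSAP11 line by 3.66 ± 0.42 (SE, adjusted p = 0.00314 by limma), and its mean signal was 21.1 times that of wild type. In the OsRLCK253 line it rose by 2.19 ± 0.42 (adjusted p = 0.0166), with a mean signal 7.59 times that of wild type. Without wild type replicate 2 these ratios were 45.8 and 16.5. Because wild type was dim, the log2 sizes depend on the added constant. With 1 added in place of 16 the changes were 4.67 and 3.09.

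The call in the OsSAP11 line held under every alternative tried. In the OsRLCK253 line it was lost without wild type replicate 1 (adjusted p = 0.0599), without wild type replicate 3 (adjusted p = 0.0559) and in a fit of these 2 groups alone (adjusted p = 0.0648).

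Levels of SAG29 were in the order wild type, OsRLCK253, OsSAP11. The step between the lines was 1.47 ± 0.42 and did not pass the test (adjusted p = 0.0999, 95% interval 0.47 to 2.47). In that comparison 1 of the 16 members was called, higher in the OsSAP11 line, against 5.21% of all probe sets, 3.34% higher and 1.87% lower.

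The probe sets whose log2 signals over the 9 arrays were most like those of SAG29, among 5937 that name 1 gene and have a mean signal above the median, were ALDH11A3, CYP71B35, AT3G50270, AT1G77280 and AT4G11380. Their Pearson correlations were 0.979, 0.977, 0.977, 0.977 and 0.977. All 9 points share the 3 group means, so these values mostly rank the same order of groups. ALDH11A3, an aldehyde dehydrogenase gene, had mean signals of 1667 in wild type, 2509 in the OsRLCK253 line and 2860 in the OsSAP11 line.

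SWEET1 and SWEET4, both transporters of hexoses, were higher in the OsSAP11 line, and for SWEET4 the lines differed. SWEET1 gave 60.2, 66.3 and 90.1 in wild type, 137, 122 and 115 in the OsRLCK253 line, and 229, 197 and 182 in the OsSAP11 line. As for SAG29, the groups did not overlap and stood in the order wild type, OsRLCK253, OsSAP11.

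SWEET1 rose by 1.32 ± 0.14 in the OsSAP11 line (adjusted p = 0.00242) and by 0.69 ± 0.14 in the OsRLCK253 line (adjusted p = 0.0211). The second of these calls was lost without OsRLCK253 replicate 1 or 2 (adjusted p = 0.0548 and 0.0555), without wild type replicate 1 or 2 (0.0657 and 0.0636), in a fit of these 2 groups alone (0.0574) and with the replicate number as a block (0.0682). Between the lines the difference was 0.63 (95% interval 0.30 to 0.97) and did not pass the test (adjusted p = 0.0538), though it did under 3 of 8 alternatives.

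SWEET4 gave 130, 116 and 113 in wild type, 88.7, 138 and 98.1 in the OsRLCK253 line, and 241, 223 and 254 in the OsSAP11 line. The OsSAP11 arrays were all above the other 6, and the OsRLCK253 arrays overlapped with wild type. SWEET4 rose by 0.91 ± 0.14 in the OsSAP11 line (adjusted p = 0.00874). In the OsRLCK253 line its change was -0.14 ± 0.14 (adjusted p = 0.504, 95% interval -0.48 to 0.20).

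The direct difference between the lines in SWEET4 was 1.06 ± 0.14 and passed the test (adjusted p = 0.0133). It was the only one of the 16 members called in that comparison. The call did not hold without OsSAP11 replicate 3 (adjusted p = 0.0518), in a fit of these 2 groups alone (adjusted p = 0.0535) or with the replicate number as a block (adjusted p = 0.0531).

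SWEET11 and SWEET13, of the sucrose-carrying branch, were highest in the OsRLCK253 line. SWEET11 gave 1308, 999 and 1324 in wild type, 1568, 1515 and 1615 in the OsSAP11 line, and 1807, 1850 and 2021 in the OsRLCK253 line. The 3 groups did not overlap.

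SWEET11 rose by 0.65 ± 0.11 in the OsRLCK253 line (adjusted p = 0.0105), a call that held under every alternative tried. In the OsSAP11 line its change was 0.38 ± 0.11 (adjusted p = 0.0733, 95% interval 0.12 to 0.64), and without wild type replicate 2 it was 0.25 (adjusted p = 0.0393). That change also passed with dim probe sets filtered out (adjusted p = 0.0293), but not under the other 7 of 8 alternatives. The difference between the lines was -0.27 (adjusted p = 0.18, 95% interval -0.53 to -0.0088).

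SWEET13 is known to act with SWEET14 in anthers and to carry gibberellin as well as sucrose. Its signals were 58.0, 65.0 and 112 in wild type, 132, 114 and 118 in the OsSAP11 line, and 180.2, 216.5 and 172 in the OsRLCK253 line. Wild type replicate 3 was the highest of its group and lay just under the lowest OsSAP11 array.

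SWEET13 rose by 1.16 ± 0.20 in the OsRLCK253 line (adjusted p = 0.0122), and in a fit of these 2 groups alone its adjusted p was 0.0532. In the OsSAP11 line its change was 0.58 ± 0.20 (adjusted p = 0.127), and without wild type replicate 3 it was 0.82 (adjusted p = 0.0103). Neighbouring groups in the order wild type, OsSAP11, OsRLCK253 thus did not differ by the test under the setting reported, and the lines differed by -0.58 (adjusted p = 0.146, 95% interval -1.06 to -0.090). With dim probe sets filtered out both steps passed (adjusted p = 0.0276 from wild type to OsSAP11 and 0.0454 between the lines). Under the other 7 of 8 alternatives neither did. SWEET14 reached at most 5.21 on any array. Whether these probe sets also bind transcripts of close relatives was not tested.

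**Figure D2:**
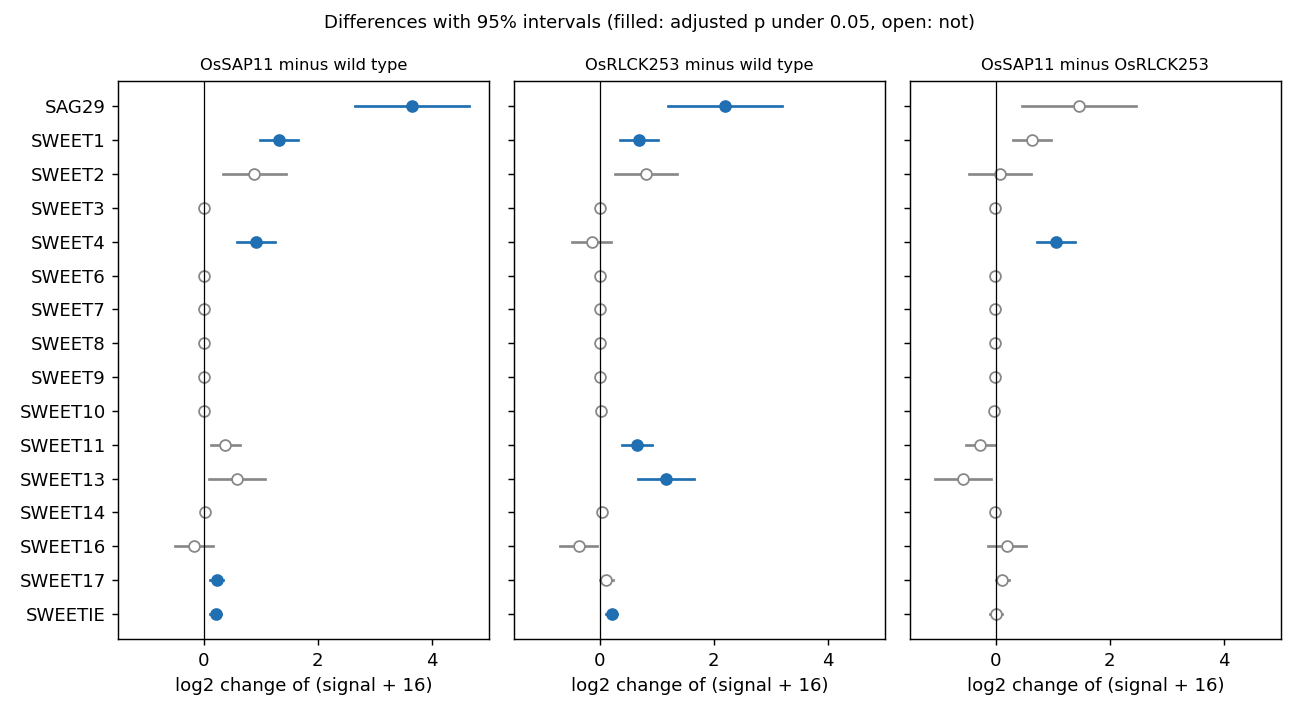
Change in log2(signal + 16) with its 95% interval for all 16 members in each of the 3 comparisons, with filled points where the adjusted p is under 0.05. SAG29 has the largest change against wild type in both lines (3.66 and 2.19), SWEET4 alone is filled between the lines (1.06), and the 7 dim members lie at 0.

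SWEET2, SWEET16 and SWEET17, transporters of the vacuolar membrane, had small changes or changes that did not pass the test. SWEET17, which exports fructose from the vacuole, gave 369, 374 and 340.1 in wild type, 381, 396 and 397 in the OsRLCK253 line, and 399.5, 438.5 and 436 in the OsSAP11 line. The groups did not overlap. SWEET17 rose by 0.23 ± 0.048 in the OsSAP11 line (adjusted p = 0.0254), and in the OsRLCK253 line its change was 0.11 ± 0.048 (adjusted p = 0.175). The rise was smaller than the median difference of the spike-ins, which had the opposite sign, and the call was lost under 4 of 8 alternatives, with an adjusted p of up to 0.0962, and in 4 of the 6 fits without 1 array, namely those without OsSAP11 replicates 2 or 3 and without wild type replicates 1 or 3.

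SWEET2, known to limit the loss of sugar from roots, had signals of 34.4, 37.6 and 14.0 in wild type, 58.1, 70.7 and 64.0 in the OsSAP11 line, and 72.1, 59.4 and 49.9 in the OsRLCK253 line. Both lines lay above all wild type arrays, and overlapped with each other. Its changes of 0.89 ± 0.23 (adjusted p = 0.0511) and 0.81 ± 0.23 (adjusted p = 0.065) did not pass the test. The first of them did under 4 of 8 alternatives, and without wild type replicate 2 (adjusted p = 0.0483) or 3 (adjusted p = 0.0398). The second did under 3 of 8.

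SWEET16 was the one member above 16 with lower mean signals in both lines. It gave 39.3, 40.0 and 30.9 in wild type, 28.2, 28.5 and 35.4 in the OsSAP11 line, and 17.7, 25.8 and 31.3 in the OsRLCK253 line, so each line overlapped with wild type. Its changes were -0.17 ± 0.14 (adjusted p = 0.568) and -0.37 ± 0.14 (adjusted p = 0.134).

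SWEETIE gave 107, 103 and 95.9 in wild type, 121.5, 120.6 and 120.5 in the OsSAP11 line, and 114.5, 123 and 124 in the OsRLCK253 line. It rose by 0.21 ± 0.041 in each line (adjusted p = 0.0182 and 0.018), and no array of either line overlapped with wild type. The median spike-in differences, of opposite sign, were of similar size. The call was lost under 5 of 8 alternatives in the OsSAP11 line and 4 of 8 in the OsRLCK253 line. With quantile normalization the change in the OsSAP11 line was 0.16 (adjusted p = 0.0902). Without OsSAP11 replicates 1, 2 or 3 in turn its adjusted p in that line was 0.0623, 0.0582 and 0.0565, and in the OsRLCK253 line it was 0.0581 and 0.055 without replicates 2 or 3.

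All 3 OsRLCK253 arrays were above the 3 wild type arrays for 13 of the 16 members, but the same was true of 34.0% of all probe sets tested. For the OsSAP11 line this count was 8 of 16, against 17.8%. No member had all 3 arrays of a line below wild type, against 13.9% of probe sets for the OsSAP11 line and 12.4% for the OsRLCK253 line. Between the lines, 4 members had all OsSAP11 arrays above and 8 all below, against 13.1% and 37.5%. Of the 7 dim members, 6 had all OsRLCK253 arrays above wild type and none had all OsSAP11 arrays above it, and 6 of the 8 members lower in the OsSAP11 line than in the OsRLCK253 line were dim. The shares given are over all probe sets, and those among dim probe sets alone were not computed. The changes of the dim members from wild type in the OsRLCK253 line were at most 0.035. In SWEET10, for example, the mean signal was 5.22 against 4.87 in wild type, a change of 0.024 (adjusted p = 0.13).

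**Figure D3:**
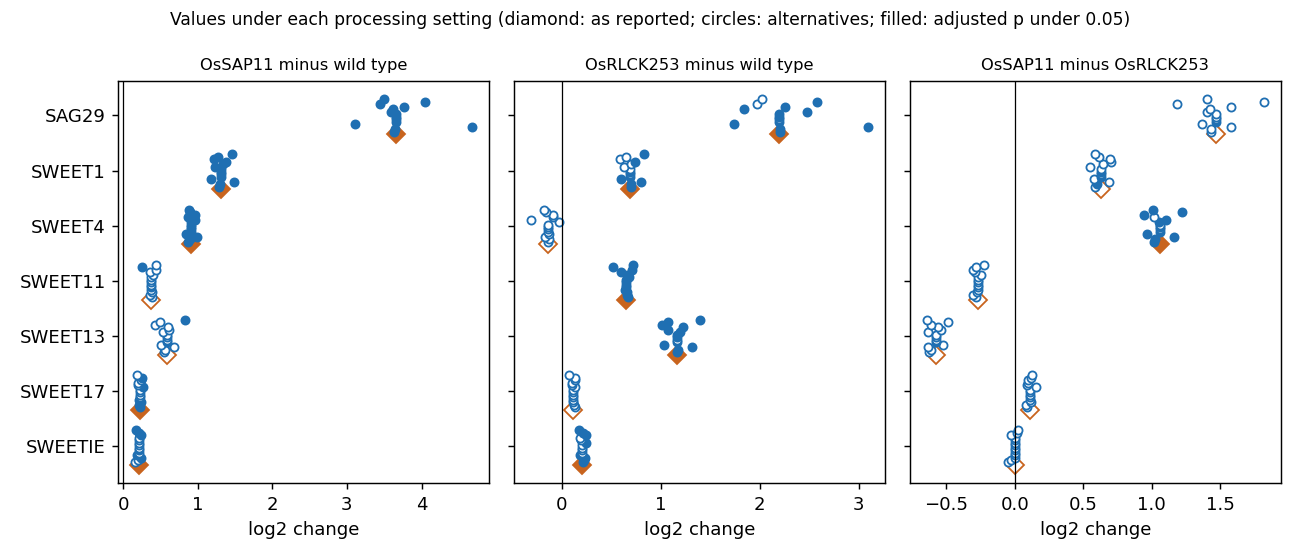
Log2 change of the 7 members called against wild type in at least 1 line, under the setting reported (diamond) and each alternative (circles), with filled symbols where the adjusted p is under 0.05. In the OsSAP11 line all values of SAG29, SWEET1 and SWEET4 are filled, and for SWEETIE and SWEET17 filled and open symbols mix.

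Other genes of sugar transport, sucrose metabolism and senescence were taken from 3 lists of 91 genes, of which 17 had a probe set naming them alone. Of all probe sets tested, 7.44% were called higher and 5.17% lower in the OsSAP11 line. In the OsRLCK253 line these shares were 6.95% and 6.85%. Of 10 measured genes among 47 other sugar transporters, 1 rose and none fell in the OsSAP11 line, and 1 rose and 1 fell in the OsRLCK253 line. Their median changes were 0.070 and 0.041, beside -0.0021 and 0.014 over all probe sets tested. AT5G61520 was the gene that rose in both lines. Its signals were 66.7, 74.7 and 80.1 in wild type, 124, 124 and 145 in the OsSAP11 line, and 109.7, 126.5 and 103 in the OsRLCK253 line. The changes were 0.71 ± 0.093 (adjusted p = 0.00473) and 0.52 ± 0.093 (adjusted p = 0.0126), and both lines lay above wild type on every array.

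TMT1, a sugar carrier that loads the vacuole, fell by 0.74 in the OsRLCK253 line (SE 0.15, adjusted p = 0.0225). It gave 194, 307 and 216 in wild type and 123, 144 and 134 in that line, with no overlap. Its call was lost in a fit of these 2 groups alone (adjusted p = 0.0786) and without OsRLCK253 replicate 1 (adjusted p = 0.0582) or 3 (adjusted p = 0.0612). In the OsSAP11 line its change was -0.19 (adjusted p = 0.583). TMT2, of the same family, had changes of 0.39 (adjusted p = 0.0502) and 0.19 (adjusted p = 0.254). The first passed under 4 of 8 alternatives, and without wild type replicate 2 (adjusted p = 0.0291). TMT3 reached at most 4.61 on any array. Among the others on the list, AT2G20780 and AT5G17010 had changes of 0.42 and 0.11 in the OsSAP11 line and did not pass. AT2G18480, with a change of 0.14 in that line that did not pass, and the other 3 measured genes stayed under 16 on all arrays.

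Of 3 measured genes among 19 for cleavage and synthesis of sucrose, ATSPS4F, a sucrose phosphate synthase gene, fell in the OsSAP11 line and none rose. It gave 540, 584 and 632 in wild type, 363, 317 and 281 in the OsSAP11 line, and 606, 655 and 656 in the OsRLCK253 line. The OsSAP11 arrays were below the other 6. It fell by 0.84 (SE 0.097, adjusted p = 0.00317), with a change of 0.13 in the OsRLCK253 line (adjusted p = 0.404) and a difference between the lines of -0.97 (adjusted p = 0.00651). AT1G62660 had changes of 0.53 (adjusted p = 0.0655) and 0.55 (adjusted p = 0.0554), which became 0.71 and 0.73 and passed without wild type replicate 2 (adjusted p = 0.00528 and 0.0038). Both also passed with median centring (0.0429 and 0.0273) and with dim probe sets filtered out (0.014 and 0.0106). With quantile normalization they did not (0.072 and 0.0505). The third gene, cwINV6, stayed under 16 on all arrays. The medians of this list were 0.0081 and 0.13.

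Besides SAG29, 4 of 25 senescence genes were measured, and none of them rose in either line. WRKY53, a transcription factor gene known to promote leaf senescence, gave 143, 114 and 178 in wild type, 7.29, 7.11 and 13.2 in the OsSAP11 line, and 27.1, 6.09 and 8.84 in the OsRLCK253 line. All arrays of both lines were far below wild type. It fell by 2.67 (SE 0.28, adjusted p = 0.0022) and by 2.47 (SE 0.28, adjusted p = 0.00212), the reverse of SAG29 in direction. WRKY6, NOL (a chlorophyll b reductase gene) and SAG101 had changes of -0.19, 0.026 and 0.049 in the OsSAP11 line and of -0.13, -0.14 and 0.012 in the OsRLCK253 line, and did not pass. SAG101 was dim, with signals of 10.5 to 14.5 over all arrays. The list had medians of -0.080 and -0.13. Most genes of this list, SAG12 and SAG13 among them, were not analysed here.

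**Figure D4:**
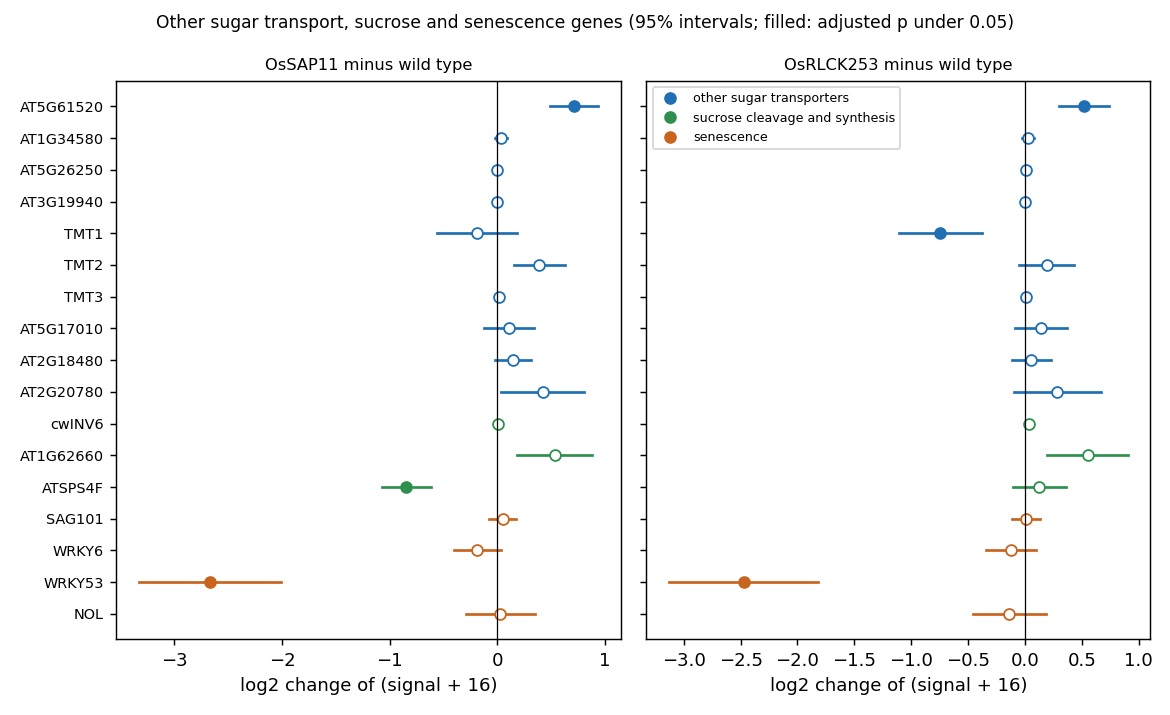
Change in log2(signal + 16) with its 95% interval for the 17 measured genes of the 3 lists in both comparisons with wild type, with filled points where the adjusted p is under 0.05. AT5G61520 is higher in both lines, WRKY53 lower in both (-2.67 and -2.47), ATSPS4F lower in the OsSAP11 line (-0.84) and TMT1 lower in the OsRLCK253 line (-0.74).

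Beside these results, all 3 measured photosynthetic leaf markers were called higher in both lines, against 7.44% and 6.95% of all probe sets tested. The medians of these markers were 0.36 and 0.48. Their summed signal was 36238 to 40727 in wild type, 50677 to 55593 in the OsSAP11 line and 54141 to 55941 in the OsRLCK253 line. Of the 2 measured root markers, EXPA7 rose in the OsRLCK253 line by 0.74 (adjusted p = 0.0389) and none was called in the OsSAP11 line. EXPA7 was dim, under 16 on 7 of 9 arrays, with 8.50, 8.11 and 5.41 in wild type and 27.6, 13.9 and 29.0 in the OsRLCK253 line. EXPA18 changed by 0.64 in that line (adjusted p = 0.146) and overlapped with wild type. The summed signal of both was 32.6 to 46.5 in wild type, 35.0 to 55.0 in the OsSAP11 line and 49.4 to 105 in the OsRLCK253 line. Their part in the changes of the SWEET genes was not tested.

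For the other members called, the most similar probe sets by the same measure were AT1G21560 for SWEET1 (0.986), AT5G02940 for SWEET4 (0.972), AT1G50020 for SWEET11 (0.971), AT1G18460 for SWEET13 (0.982), AT3G06330 for SWEET17 (0.970) and AT5G66590 for SWEETIE (0.981). None of the 5 most similar probe sets of any of the 7 members was a SWEET gene. The dim members and SWEET16, with mean signals below the median, could not be listed. Among the 9 members that reached 16, the same correlations ranged from -0.78 (SWEET13 and SWEET16) to 0.91 (SAG29 and SWEET1).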

How the data were processed

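The authors deposited linear signal intensities for 22810 probe sets on each of 9 arrays. Per the submitters' processing notes GCOS was used, while summarisation, background correction and scaling are steps not given in the sources used here. Genes were named through the platform annotation and the RefSeq gene table of TAIR10.1, to which all 16 members matched. That table was used for names and for which genes are neighbours only.

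Leaving out 64 control probe sets, log2(signal + 16) of the other 22746 was fitted with limma 3.58.1 in R 4.3.3, with 1 mean per group over all 9 arrays, empirical Bayes moderation and Benjamini-Hochberg adjustment over all probe sets tested. No further scaling was applied, since array medians differed by 0.078 on this scale. Errors are SE for changes and SD of 3 arrays in the plots. The number of arrays limits the precision. The procedure was tested on simulated data.

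No 2 arrays held identical values. Same-numbered replicates deviated from their group means with correlations of -0.13 to 0.18. The arrays were therefore not paired in the fit reported, though such values cannot show that no batch was shared. Every member was named, with up to 6 genes per list by size of change, list genes of the same family name as one of these (TMT3) and the 5 probe sets most correlated with each called member. Members and lists were chosen with earlier results of these data known. Alternatives covered scaling, the added constant, a filter on dim probe sets, the groups fitted, the prior, a replicate block and each array left out.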

Additional observations from a re-analysis of the deposited data

Results flagged for a closer look

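For 2 genes the direct test between the lines showed that they differ in their distance from wild type, the wild type arrays being shared. SWEET4 differed by 1.06 (OsSAP11 minus OsRLCK253, adjusted p = 0.0133 by limma), with all 3 OsSAP11 arrays above all OsRLCK253 arrays. ATSPS4F differed by -0.97 (adjusted p = 0.00651), with all 3 OsSAP11 arrays below. The adjusted p of SWEET4 ranged from 0.000625 to 0.0535 over its alternatives and that of ATSPS4F from 0.000324 to 0.0379.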

How the results depend on the processing

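Of 918 recomputed values, 799 kept their direction and side of the threshold or, for counts and medians, stayed within 1.5 times or within the spread between replicates, 38 lost a call, 34 gained one, 36 counts or medians moved and 11 values of single genes changed sign. SAG29 in the OsRLCK253 line was 2.19 and not called in a fit of 2 groups, and was 1.84 to 2.58 with 1 array left out. Between the lines it was 1.47 and called with dim probe sets filtered out (adjusted p = 0.0128). Members called between the lines numbered 2 with median centring, 4 with the filter, 3 with a trend and robust prior, and 0 with 2 groups alone or with the replicate block. In the OsRLCK253 line the number was 1 with 2 groups alone, a fit that called 2150 of all probe sets against 3138 as reported. With the replicate block, which the pairing check did not support, 3 members were called in each line against wild type. With 1 array left out, members called were 3 to 7 in the OsSAP11 line, 3 to 4 in the OsRLCK253 line and 0 to 1 between the lines. All probe sets called between the lines, 1185 as reported, numbered 1642 with median centring, 609 with 2 groups, 1809 with the trend and 639 with the replicate block. With the filter, which tested fewer probe sets, they numbered 1862. With 1 array left out the totals were 1827 to 2438, 2040 to 3387 and 449 to 1388 in the 3 comparisons, against 2869, 3138 and 1185. Some of these fits had fewer probe sets or arrays. The cause of the changed counts was not tested.

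The median change of the 15 members other than SAG29 was 0.015 in the OsSAP11 line and 0.056 with 1 added to the signals. It also changed sign, to -0.0024 with median centring and to -0.0016 without OsSAP11 replicate 2, within the spread between replicates. In the OsRLCK253 line it was 0.011 with quantile normalization, 0.038 with median centring, 0.084 with 1 added, 0.014 with 32 added and 0.020 to 0.027 with 1 array left out. Between the lines it was -0.0011 with quantile normalization, -0.041 with centring and -0.034 with 1 added. Of the values of single genes that changed sign, none was called under the setting reported or the alternative. SWEETIE between the lines was -0.046 with quantile normalization, -0.028 with centring and -0.028 to 0.024 with 1 array left out. Likewise, with 1 array left out, SWEET2 between the lines was -0.025 to 0.18, AT1G62660 was -0.056 to 0.026, AT5G17010 was -0.095 to 0.016, WRKY53 was -0.38 to 0.097, and NOL in the OsSAP11 line was -0.10 to 0.12. The filter gave SWEET16 and the median of the other members no value, since members fell out.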
